A study of Mus musculus with 17 samples.

Results

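The regions described here are the 56 accessible regions assigned to 7 genes that write, copy or remove DNA methylation, out of 66177 regions in mouse B cells. A region was taken when Dnmt1, Dnmt3a, Dnmt3b, Uhrf1, Tet1, Tet2 or Tet3 was its nearest transcript or its nearest transcription start in the deposited table. By either assignment there were 4 regions for Dnmt1, 9 for Dnmt3a, 4 for Dnmt3b, 3 for Uhrf1, 6 for Tet1, 26 for Tet2 and 4 for Tet3. The table classed 8 of them as promoter regions, of 14332 in all, and 48 as distal, of 51845. Of the distal regions, 27 were intergenic, 19 lay in introns and 2 spanned an exon and an intron.

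DNA methylation is the addition of a methyl group to cytosine, in mammals mostly where the cytosine is followed by guanine (CpG). Dnmt3a and Dnmt3b are the de novo methyltransferases, which methylate sites that carried no mark. Dnmt1 is the maintenance methyltransferase, which copies the pattern onto the new strand after DNA replication, and Uhrf1 is the protein that recognises hemimethylated CpGs and recruits Dnmt1 to them. Tet1, Tet2 and Tet3 are dioxygenases that oxidise 5-methylcytosine and so start its removal. B cells that enter a germinal center divide rapidly before some of them become plasma cells, so the methylation pattern has to be copied many times along this path.

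ATAC-seq, in which the transposase Tn5 cuts and tags open chromatin, was run on 3 cell types sorted from mice of 2 genotypes. Naive B cells (nB; B220+ Fas- GL7-, lymph node) came from unimmunized mice, whereas germinal center B cells that bound the antigen phycoerythrin (GCB; B220+ Fas+ GL7+ PE+, lymph node) and bone marrow plasma cells (BMPC; CD138+) were taken 30 days after immunization with phycoerythrin in adjuvant. Every mouse, the controls included, carried floxed Dnmt3a and Dnmt3b alleles (by the labels, alleles Dnmt3atm3.1Enl and Dnmt3btm5.1Enl on a B6;129S4 background; the study's methods name the Dnmt3a allele Dnmt3atm3.2Enl). Dnmt3-sufficient control mice (C) carried no Cre, and Dnmt3-deficient mice (KO) carried 1 copy of a Cre allele active in the B lineage, which deletes the catalytic parts of both genes there. The Cre allele itself was therefore also present in KO cells alone, and its part in the differences between KO and C cannot be told apart from that of the deletions. There were 3 nB C, 2 nB KO, 2 GCB C, 4 GCB KO, 3 BMPC C and 2 BMPC KO libraries, 16 in all. Another BMPC KO sample was not analysed here. Each nB and BMPC library came from a single mouse and each GCB library from a pool of mice, the nB libraries were all from males and the BMPC libraries all from females, so that cell type and sex cannot be told apart between nB and BMPC. The GCB C pools were F2 (female) and M1 (male), and the GCB KO pools F1, F2 and F3 (female) and M1 (male). Sex was therefore not balanced between the GCB genotypes, nor between GCB and the other cell types. All 7 genes are autosomal. The p-values therefore measure the spread between animals or pools, and which libraries were made in the same experiment is not given in the sources used here. In sorted bulk cells, a region open in fewer cells and a region less open in every cell cannot be told apart.

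Values are reads scaled to 1000000 reads in regions per library (RPPM). The nB libraries held 4104875 to 6079018 reads in regions and the BMPC libraries 5357687 to 8232313, but the GCB libraries held only 907959 to 2280954, so that 3 reads corresponded to 1.32 to 3.30 RPPM in GCB and to 0.364 to 0.731 RPPM elsewhere. Mitochondrial regions took 7.43 to 10.1% of the reads in GCB and 2.56 to 4.59% in the other libraries. Tests used limma and the scale log2(RPPM + 1) over all 66177 regions, a scale that understates the change of regions with low values, and a region was called at a Benjamini-Hochberg adjusted p of at most 0.01 and at least a 2-fold change. The cell type labels were checked against the region nearest the start of marker genes. Of 4 naive B cell markers with a region, Fcer2a and Ccr7 were called lower in both GCB C and BMPC C than in nB C, and Cd38 was not called (24.0 RPPM in nB C and 23.4 in BMPC C). Of 6 plasma cell markers, 4 were called higher in BMPC C than GCB C and 2 higher than nB C, while Irf4 was at 57.4 RPPM in nB C and 44.1 in BMPC C. Of 5 germinal center markers, only Gcsam was called higher in GCB C than nB C. Gcsam, a signaling adaptor of germinal center B cells, stood at a mean of 21.0 RPPM in GCB C, 0.580 in nB C and 5.49 in BMPC C. Fcer2a (CD23), a marker of naive B cells, fell from 42.4 RPPM in nB C to 1.20 in BMPC C, and Tnfrsf17 (BCMA), a receptor of plasma cells, rose from 0.392 to 20.0 RPPM. Bcl6, the germinal center repressor, went against its label, with a lower region in GCB C than in nB C (log2 fold change −1.38 ± 0.18 SE, limma adjusted p = 4.7e-07). Fas (20.6 RPPM in GCB C and 31.2 in BMPC C) and S1pr2 (26.2 and 39.3) had their highest means in BMPC. Of 4 T cell markers, 3 had a region, and their sum was 16.2 to 36.3 RPPM in GCB, 13.0 to 21.9 in BMPC and 3.95 to 5.84 in nB. The highest of them in the sum was Cd4, by a region at −5589 bases from its start (11.3 RPPM in GCB C and 0.867 in nB C), and Cd247, the CD3 zeta chain, was also higher in GCB C (11.2 RPPM) than in nB C (1.85; log2 fold change 2.11, limma adjusted p = 0.00012). The region for Cd3e, which defines T cells, was called lower, at 0.660 RPPM in GCB C and 3.02 in nB C, and Cd8a had no region. Of the NK cell markers, Klrb1c was higher in GCB C than nB C (log2 fold change 1.58, limma adjusted p = 0.0005). Of 3 erythroid markers, all with a region, Hbb-b1 had means of 1.13 RPPM in GCB C and 17.1 in GCB KO, a difference that was not called. Only Hbb-b1 of the 3 was called lower in BMPC than nB, in C (log2 fold change −2.15) and KO (−3.31). The medians of the 3 were −0.28 and 0.0016 in these comparisons. The 3 myeloid markers with a region, Csf1r, Itgam and Mpo, were called lower in BMPC C than nB C (−1.71, −1.25 and −1.56). Per the methods of the study, the staining panels held antibodies to Ly6-G, CD90.2, CD11b and CD11c, used to exclude autofluorescent cells. The part of other cell types in the differences below was not tested.

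The central 200 bases of 6 distal regions are printed first, on the plus strand of mm9 (NCBIM37), because the results below turn on them; the first 5 were called between cell types in C and the last had the smallest p between genotypes, without a call there. Capitals mark matches, on either strand, to ATGCAAAT (the octamer bound by Oct factors), CAGCTG and CACCTG (E-boxes bound by E2A), GAAAC (part of IRF sites) and CCAAT. No match overlapped another, and the letters searched for PU.1, NRF1, E2F and SP1 (given below) were not in these windows.
Tet2 at −289876, chr3:133497515-133497714: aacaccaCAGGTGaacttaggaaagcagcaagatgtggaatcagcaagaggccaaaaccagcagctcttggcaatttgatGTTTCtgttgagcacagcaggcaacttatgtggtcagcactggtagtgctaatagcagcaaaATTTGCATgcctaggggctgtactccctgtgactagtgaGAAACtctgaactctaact
Tet3 at 24212, chr6:83367188-83367387: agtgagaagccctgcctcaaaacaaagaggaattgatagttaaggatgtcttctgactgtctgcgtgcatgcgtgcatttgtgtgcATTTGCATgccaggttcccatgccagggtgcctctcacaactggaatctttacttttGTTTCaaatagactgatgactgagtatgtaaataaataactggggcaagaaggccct
Dnmt1 at 2977, chr9:20753743-20753942: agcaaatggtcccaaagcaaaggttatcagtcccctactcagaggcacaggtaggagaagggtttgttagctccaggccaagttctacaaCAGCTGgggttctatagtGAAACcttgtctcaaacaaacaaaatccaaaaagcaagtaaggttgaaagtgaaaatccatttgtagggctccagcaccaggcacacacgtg
Tet2 at −264323, chr3:133472004-133472203: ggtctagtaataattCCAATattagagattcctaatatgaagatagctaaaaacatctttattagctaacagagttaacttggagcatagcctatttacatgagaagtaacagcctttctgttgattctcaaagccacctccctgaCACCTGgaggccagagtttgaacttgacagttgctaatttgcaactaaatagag
Tet1 at −3644, chr10:62346702-62346901: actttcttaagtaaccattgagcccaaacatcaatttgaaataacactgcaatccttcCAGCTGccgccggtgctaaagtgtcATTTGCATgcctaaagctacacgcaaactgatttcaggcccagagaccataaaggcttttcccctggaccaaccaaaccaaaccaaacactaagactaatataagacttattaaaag
Dnmt3a at −20015, chr12:3871211-3871410: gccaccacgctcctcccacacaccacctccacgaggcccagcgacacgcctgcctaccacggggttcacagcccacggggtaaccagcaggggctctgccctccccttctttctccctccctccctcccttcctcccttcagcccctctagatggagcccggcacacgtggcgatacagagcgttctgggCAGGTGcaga
The octamer letters were present in the windows of Tet2 at −289876, Tet3 at 24212 and Tet1 at −3644 and in none of the other 3, of which Tet2 at −264323 was also called higher in GCB than nB. Over the full length of the regions, 6 of the 48 distal regions held an octamer, compared with 6.18% of distal regions of similar width. Those not printed were Tet2 at −37232, −38341 and −135918, none of them called higher in GCB C than nB C. The IRF letters were in 41 of 48 (71.1% of distal regions of similar width), CCAAT in 26 (42.1%), CACCTG in 18 (38.1%) and CAGCTG in 15 (29.7%). Letters of this length recur by their base composition alone, and a match is not a binding site.

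The region that the table places nearest the start of each of the 7 genes held reads in every library. Accessibility per kilobase at the region nearest each start, in nB C, was 63.0 ± 7.32 RPPM per kb at Dnmt1, 56.0 ± 2.10 at Tet2 and 48.5 ± 3.99 at Uhrf1 (SD, n = 3). Dnmt3b followed at 27.9 ± 0.458, Dnmt3a at 25.2 ± 4.37, Tet3 at 17.0 ± 5.26 and Tet1 at 11.1 ± 0.693 RPPM per kb. In this order the libraries of neighbouring genes overlapped for Dnmt1 and Tet2, Dnmt3b and Dnmt3a, and Dnmt3a and Tet3, and did not overlap for Tet2 and Uhrf1, Uhrf1 and Dnmt3b, or Tet3 and Tet1. The median over the nearest-start regions of all 15301 genes was 26.7 RPPM per kb. Tet1 was lowest in GCB C, at 6.26 RPPM per kb, below the median of all regions there (12.9). In BMPC C, Tet3 stood at 25.6 ± 2.59 RPPM per kb, beside Dnmt3a at 26.5 ± 4.11, and Tet1 remained lowest at 11.8 ± 1.76.

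**Figure D1:**
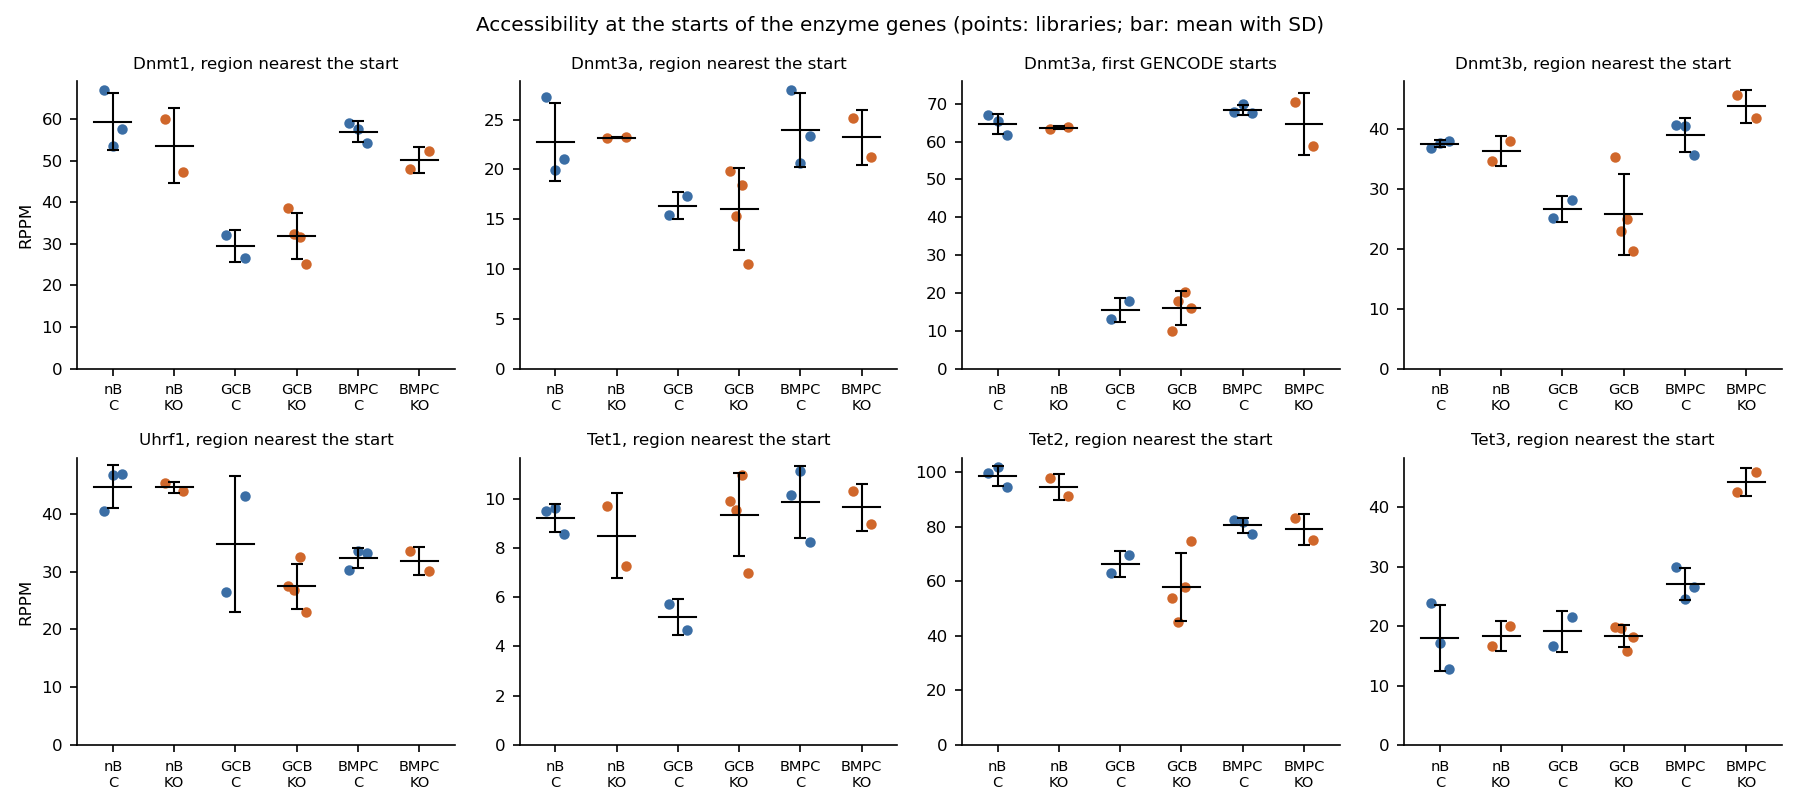
Accessibility in RPPM (vertical axes, linear from 0) in each library (points; blue C, orange KO) of the 6 groups at the region nearest the start of each gene and at the region over the first GENCODE starts of Dnmt3a, with the mean and SD in black. The GCB libraries lie below the nB and BMPC libraries at Dnmt1 and at the first Dnmt3a starts, and both BMPC KO libraries lie above all others at Tet3.

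Few of the promoter regions were called between cell types. Among C libraries, 1 of 8 promoter regions was called in GCB against nB and none in BMPC against nB or BMPC against GCB, where 15.9%, 17.6% and 19.1% of all promoter regions were called. The log2 fold changes of the 8 promoter regions were −0.99 to 1.13, −0.45 to 0.61 and −0.52 to 0.94, respectively, with 7, 4 and 7 of them at an unadjusted p under 0.05 in either direction, where 57.7%, 47.2% and 62.1% of all promoter regions were. Their medians were −0.46, 0.06 and 0.50, beside −0.18, 0.10 and 0.30 over all promoter regions, so promoter regions in general were also lower in GCB. In KO the median of GCB against nB was −0.53, beside −0.21. In KO, the region of Tet3 was called in BMPC against both other cell types (17.3% of all promoter regions were called against nB and 18.6% against GCB), and no other member promoter region was called.

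Accessibility at the start of the maintenance methyltransferase Dnmt1 (chr9:20756764-20757706) was lowest in GCB. Its values were 67.0, 53.5 and 57.7 RPPM in nB C, 32.1 and 26.7 in GCB C, and 59.0, 57.7 and 54.2 in BMPC C. The KO libraries held 60.0 and 47.2 RPPM in nB, 38.5, 32.5, 31.6 and 25.2 in GCB, and 48.0 and 52.4 in BMPC. All 6 GCB libraries lay below every nB and BMPC library. The difference between GCB C and nB C was just under the 2-fold limit of a call (log2 fold change −0.99 ± 0.15 SE, limma adjusted p = 7.4e-06), as was that of BMPC C over GCB C (0.94). This start region held 4 matches to GCGCATGC, the motif of NRF1, on both strands together; 2 of the 8 promoter regions held this motif, compared with 8.15% of promoter regions of similar width.

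Inside Dnmt1, an intronic region at 2977 bases past the start (chr9:20753595-20754089) was open in plasma cells. In BMPC C it held 11.1, 11.9 and 16.7 RPPM and in BMPC KO 11.5 and 9.15. Values in nB C were 0.731, 0.565 and 0.744, and in nB KO 0.494 and 0.197. GCB C held 0.880 and 0.468 RPPM and GCB KO 1.10, 0.636, 1.32 and 0.699. The 5 BMPC libraries thus lay above all 11 others, most of which were at or under the worth of 3 reads. In C, BMPC exceeded nB by 3.06 ± 0.29 (log2, SE; limma adjusted p = 9.2e-10) and GCB by 3.07 ± 0.33 (1.3e-08), and in KO by 3.08 and 2.56. From the pooled reads, 257 in BMPC C against 10 in nB C, the ratio was 19.4 (95% exact interval 10.4 to 40.9, counting error only). The other distal regions of Dnmt1, at −2866 and 8350, had means of 2.04 to 3.29 and 0.0823 to 1.47 RPPM over the 6 groups and no call. The distance −2866 is to another listed start, as that region lies in an intron, 36466 bases from the GENCODE start at 20757317.

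Uhrf1, the partner of Dnmt1, had a pair of adjoining promoter regions on chromosome 17, of which only the first was called. The first (chr17:56442418-56443071) rose from 8.53, 7.54 and 7.82 RPPM in nB C to 17.2 and 20.1 in GCB C, with BMPC C between them at 12.2, 13.7 and 12.1. The 3 groups did not overlap, and GCB C exceeded nB C by 1.13 ± 0.20 (log2, SE; limma adjusted p = 3.9e-05). The KO libraries held 8.72 and 7.28 RPPM in nB, 14.9 to 17.6 in GCB and 11.7 and 13.6 in BMPC. GCB KO exceeded nB KO by 0.95, under the fold limit (limma adjusted p = 0.00015). The second (chr17:56443090-56444011), nearest the start, was at 40.4, 46.7 and 46.9 RPPM in nB C, 26.4 and 43.1 in GCB C and 30.3, 33.6 and 33.2 in BMPC C, and was called in no comparison. The GCB C pair was wide apart there, with 1 library inside the nB range and the other below it. These were the only member promoter regions with TTCCCGC, an E2F motif, at 2 matches in one and 3 in the other, while 23.3% of promoter regions of similar width held it. The remaining Uhrf1 region, 5160 bases past the start, spanned an exon and an intron, had group means of 2.49 to 8.15 RPPM and was not called.

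Of the de novo methyltransferases, Dnmt3a is transcribed from several starts, and the regions at 2 of them behaved differently. The table's promoter region (chr12:3890769-3891672) lies just upstream of an internal start, at −71 bases. It held 27.3, 20.0 and 21.0 RPPM in nB C, 15.4 and 17.3 in GCB C and 28.0, 20.6 and 23.4 in BMPC C, and 23.2 and 23.2, 10.5 to 19.8, and 25.1 and 21.3 in the corresponding KO libraries, with no call. A region of 2154 bases over the first GENCODE starts (chr12:3806151-3808304) carries no gene symbol in the table and so is not among the 56; it was chosen after its values were seen. There, nB C held 67.0, 65.4 and 61.8 RPPM, GCB C 13.2 and 17.8 and BMPC C 67.9, 69.9 and 67.4. GCB KO held 9.91, 17.8, 20.2 and 16.1 RPPM, compared with 63.3 and 64.0 in nB KO and 70.3 and 58.8 in BMPC KO. All 6 GCB libraries lay far below the 10 others. GCB C was lower than nB C by a log2 fold change of −2.01 ± 0.19 (SE; limma adjusted p = 1.6e-09) and BMPC C higher than GCB C by 2.09 ± 0.19 (4.1e-10), and the corresponding KO values were −1.97 and 1.98. KO and C differed there by −0.02, 0.02 and −0.09 in nB, GCB and BMPC (SE 0.18 to 0.19).

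Between these starts, a Dnmt3a region at −29624 from the internal start (chr12:3861747-3862119), which overlaps an annotated exon of Dnmt3a and of Gm10485, was lowest in plasma cells. Its libraries held 4.14, 3.20 and 3.54 RPPM in nB C, 6.16 and 7.03 in GCB C and 1.04, 0.730 and 0.623 in BMPC C. BMPC C was lower than nB C (log2 fold change −1.37 ± 0.28 SE, limma adjusted p = 0.00017) and GCB C (−2.08 ± 0.32, 3.7e-06). In KO the libraries held 4.44 and 3.15, 5.70 to 12.1, and 1.70 and 1.31 RPPM in nB, GCB and BMPC. BMPC KO was called lower than GCB KO (−1.85), and its libraries lay below those of nB KO without a call. A further region, 27098 bases past the nearest listed start, was lower in GCB KO than nB KO (−1.37 ± 0.22, limma adjusted p = 1.3e-05), with −0.86 in C. The small region at −22912 was called lower there too, at means of 3.20 RPPM in nB KO and 0.696 in GCB KO, the latter on 5 reads. Of all members, 2 were called lower in this comparison, and 1 without the first or the second nB KO library or with DESeq2. The other regions of Dnmt3a, at −38830, −35267 and 120 and the one assigned by nearest transcript alone, were called in no cell type comparison. No Dnmt3a region lay between 3892236 and the end of the gene at 3914443.

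Dnmt3b had a promoter region (chr2:153474905-153476249) that was called in no comparison and an intronic region that opened after the naive stage. The promoter held 36.8, 37.7 and 38.0 RPPM in nB C, 25.1 and 28.1 in GCB C and 40.6, 40.5 and 35.7 in BMPC C, and 34.5 and 38.0, 19.6 to 35.2, and 45.7 and 41.8 in KO. The group means were lowest in GCB. The intronic region at 8957 (chr2:153484148-153484858) held 0.974, 0.188 and 0.186 RPPM in nB C, 3.08 and 1.87 in GCB C and 4.16, 6.93 and 6.38 in BMPC C. In KO it held 0.165 and 0.394, then 8.81, 4.46, 2.63 and 2.80, then 6.80 and 5.79 RPPM. Every GCB and BMPC library exceeded every nB library, although the nB C value rested on 6 reads and that of GCB C on 11. BMPC exceeded nB by 2.25 ± 0.35 in C (log2, SE; limma adjusted p = 3.2e-06) and 2.51 in KO, and GCB exceeded nB by 2.03 in KO and 1.28 ± 0.39 in C (0.0091). The last of these calls was lost in 14 of 30 alternative settings, with an adjusted p of up to 0.109. The 2 regions beyond the gene, 1 of them nearer to another gene's start, had group means of 1.72 to 6.01 RPPM, and the latter was called higher in GCB KO than nB KO (1.27). That call was lost in 6 of 30 alternative settings; without the first GCB KO library, which held 11.0 RPPM beside 4.19 to 4.46 in the other 3, the log2 fold change was 0.98, under the fold limit. No Dnmt3b region lay between 153484858 and 153520148.

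Among the Tet genes, Tet1 had distal regions that were higher after the naive stage, while its promoter region was not called. Of its 6 regions, 1 was called higher in GCB C than nB C and 3 in BMPC C than nB C. That promoter region (chr10:62327932-62328762) held 9.50, 9.61 and 8.56 RPPM in nB C, 5.72 and 4.68 in GCB C and 10.1, 11.1 and 8.25 in BMPC C. The region at −3644 (chr10:62346407-62347195), inside a longer GENCODE transcript of Tet1, held 6.82, 4.14 and 3.16 RPPM in nB C, 15.8 and 15.9 in GCB C and 23.5, 20.4 and 18.5 in BMPC C. In KO it held 4.61 and 5.12, 14.3 to 19.1, and 18.9 and 18.3. No nB library overlapped the others. GCB C exceeded nB C by 1.61 ± 0.23 (log2, SE; limma adjusted p = 2.7e-06) and BMPC C exceeded nB C by 1.98 ± 0.21 (4.4e-09), and in KO by 1.52 and 1.74. An intronic region at 5945 was close to the floor in nB C (0.188 to 0.372 RPPM) and GCB C (0.440 and 0) and held 3.90, 3.47 and 2.49 RPPM in BMPC C (1.75 over nB C and 1.82 over GCB C). The call over GCB C, which held 1 read, was lost with a pseudocount of 5, with DESeq2 (adjusted p = 0.021) and without the second GCB C library (1.56, adjusted p = 0.012). Its neighbour at 1209 was also higher in BMPC C than nB C (1.52 ± 0.36, 0.00068). The 2 regions further upstream, at −5904 and −6715, had means of 4.32 to 11.7 RPPM and no call. They and the region at −3644 lie upstream of a GENCODE start at 62342762. That start is itself upstream of the one at 62328052 in the promoter region, so these distances are not to the promoter region. The first GENCODE start of Tet1, at 62361866, had no region within 11821 bases.

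Tet2 held 26 of the 56 regions, from −289876 to 76834 bases by the distances of the deposited table. The regions at 76834 and 65209 lie beyond the end of the gene, and those distances are not to the start in the promoter region. The 10 member regions taken by nearest start alone are all Tet2 regions, among them those at −289876, −264323, −231830, −213701 and 76834. Their nearest transcript was not that of any of the 7 genes. Its promoter region (chr3:133206675-133208434) held 94.5 to 102 RPPM in nB C, 62.9 and 69.8 in GCB C, 45.2 to 74.8 in GCB KO and 77.4 to 82.6 in BMPC C. GCB lay below nB by −0.57 ± 0.13 in C (log2, SE; limma adjusted p = 0.0011) and −0.72 in KO, both under the fold limit. The most open distal region of the set, at −38341, had group means of 64.2 to 81.9 RPPM, with 76.0 in nB C beside 98.6 at the promoter region, and was not called. In C, 3 Tet2 regions (11.5%) were called higher in GCB than nB, beside 14.2% of all regions, and none lower (8.47%). In BMPC against nB, 8 were higher (30.8%, beside 18%) and 2 lower (7.69%, beside 20.1%). In KO, 9 were higher in GCB than nB (34.6%, beside 18.4%) and none lower (7.84%), and 13 were higher in BMPC than nB (50%, beside 18.4%) and 1 lower (3.85%, beside 16.9%). The KO counts moved with single libraries: the 9 fell to 2 without the first nB KO library and 3 without the second, and the 13 fell to 8 without the first nB KO library and to 7 and 9 without either BMPC KO library. Quantile normalization gave 3 and 9, a pseudocount of 5 gave 2 and 4, and a fit of the compared groups only gave 4 and 14. In C, the 3 became 5 without the second nB C library. With a pseudocount of 5, the 8 higher and 2 lower in BMPC C became 2 and 0.

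The region farthest upstream of those assigned to Tet2, at −289876 (chr3:133497231-133497998), was almost closed in naive B cells and most open in germinal center B cells. It was assigned by its nearest start alone, and whether it acts on Tet2 was not tested. In nB C it held 0.487, 0.188 and 0.558 RPPM (6 reads in all) and in nB KO 0 and 0.197 (1 read). GCB C held 28.6 and 22.0 RPPM and GCB KO 29.7, 27.4, 25.0 and 30.1, while BMPC C held 2.99, 2.55 and 4.36 and BMPC KO 3.89 and 2.61. The 3 cell types did not overlap, and the GCB libraries stood far above the rest. GCB C exceeded nB C by 4.22 ± 0.29 (log2, SE; limma adjusted p = 4.9e-12), and BMPC C lay below GCB C (−2.62 ± 0.29, 1.6e-08) but above nB C (1.60). By pooled reads GCB C was 62.6 times nB C (95% exact interval 27.9 to 174, counting error only). In KO the 3 differences were 4.73, −2.79 and 1.94, and this was 1 of 2 regions of the 56 (3.57%) called in all 6 cell type comparisons, beside 2.76% of all regions.

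At −264323 (chr3:133471678-133472528) another Tet2 region opened in GCB and stayed open in BMPC. It held 1.22, 0.942 and 1.67 RPPM in nB C, 12.8 and 9.84 in GCB C and 19.6, 17.3 and 22.3 in BMPC C. In KO the values were 1.48 and 1.18, then 5.51, 14.0, 11.4 and 16.8, then 23.3 and 15.5. All nB libraries lay below all others. The log2 fold change over nB C was 2.43 ± 0.31 in GCB C (SE; limma adjusted p = 5.3e-07) and 3.19 ± 0.28 in BMPC C (1.7e-10), and 2.38 and 3.11 in KO, while BMPC and GCB differed by 0.76 in C and 0.73 in KO, with no call. The region at −213701 followed the same order, with means of 2.81, 9.73 and 13.6 RPPM in nB C, GCB C and BMPC C. At −135918 and −231830, BMPC C was called higher than both nB C and GCB C, with means of 5.29 and 2.37 RPPM against 0.234 to 1.33 in nB C and GCB C. The Tet2 regions called lower in BMPC C than nB C were at −115396 (means 0.988 and 4.49 RPPM) and 76834 (1.79 and 6.48).

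**Figure D2:**
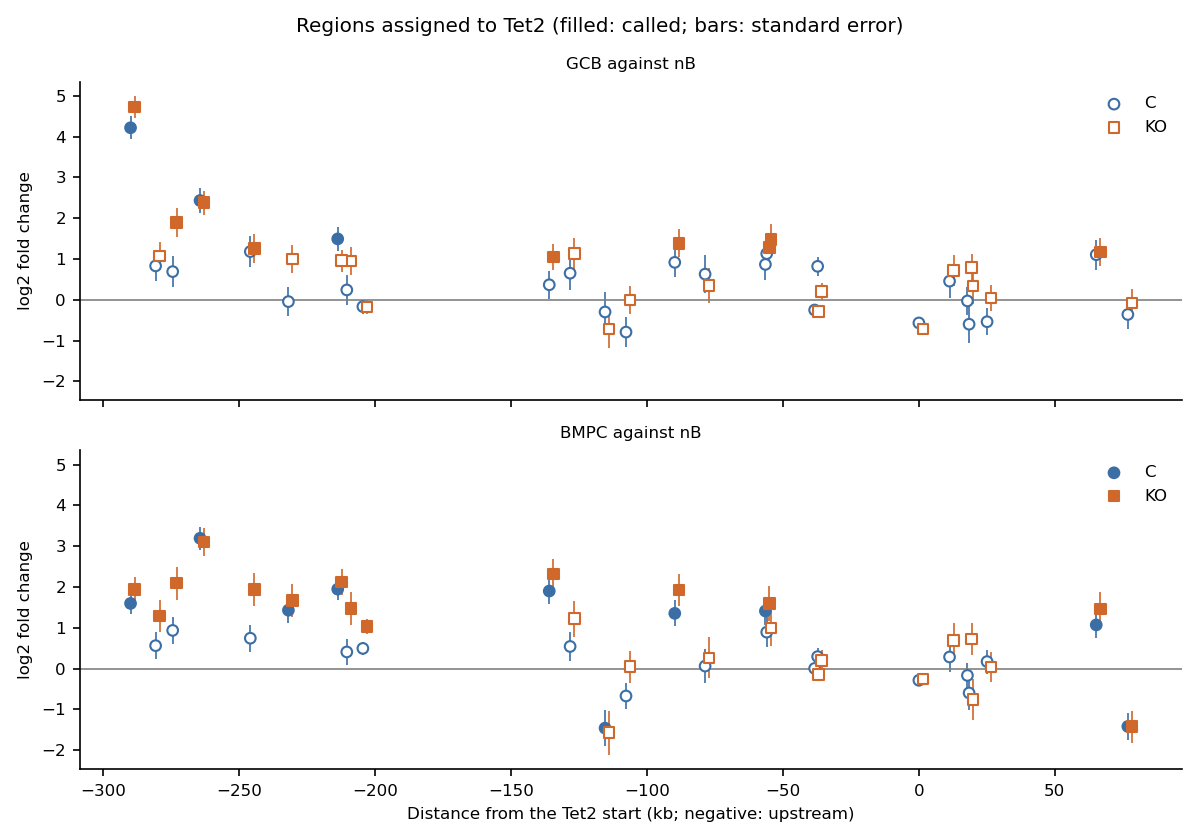
Log2 fold change of RPPM + 1 (vertical axes) of GCB over nB (upper panel) and BMPC over nB (lower panel) at the regions assigned to Tet2, with standard errors. The horizontal axis is the distance in kb to the nearest listed Tet2 start, which is not the same start for every region. Filled symbols were called. The called values lie mostly above 0 and, as do most of the regions, mostly upstream, and the highest, 4.22 in C and 4.73 in KO, is at −289876 in GCB.

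Inside Tet3, 3 intronic regions had their lowest means in plasma cells, while the promoter region had its highest there. At 24212 (chr6:83367116-83367459) the libraries held 3.90, 4.33 and 6.14 RPPM in nB C, 16.3 and 16.9 in GCB C and 1.17, 0.730 and 1.56 in BMPC C. In KO they held 4.11 and 5.12, then 13.2, 12.7, 15.8 and 8.39, then 1.34 and 2.05. The 3 cell types did not overlap. GCB C exceeded nB C by 1.62 (log2; limma adjusted p = 7.6e-05), BMPC C lay below nB C (−1.43) and below GCB C (−3.05, 2.4e-09), and all 3 differences were called in KO too (1.24, −1.07 and −2.31). In KO, the call of BMPC against nB was lost in 6 of 30 alternative settings, with an adjusted p of up to 0.0864, and that of GCB against nB in 2. At 4698 (chr6:83386585-83386973) nB C held 7.06, 9.61 and 8.93 RPPM, GCB C 9.24 and 3.75 and BMPC C 0.910, 0.365 and 1.09, and BMPC C was lower than nB C (−2.43, 1.2e-07) and GCB C (−1.99). The last, at 28282, held 8.28, 11.9 and 11.7 RPPM in nB C and 3.12, 2.92 and 1.71 in BMPC C (−1.71 ± 0.33, 6e-05), with 2.64 and 5.62 in GCB C (−1.23 ± 0.36 against nB C, 0.0077). The call of GCB against nB was lost in 10 of 30 alternative settings, among them leaving out the first GCB C library (−0.80, adjusted p = 0.18), and in KO it was not made (−0.34), with means of 9.06 RPPM in GCB and 11.1 in nB.

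The Tet3 promoter region (chr6:83391013-83392069), which it shares with the start of B230319C09Rik, held 23.9, 17.1 and 12.8 RPPM in nB C, 16.7 and 21.5 in GCB C and 30.0, 24.6 and 26.6 in BMPC C. In KO it held 16.6 and 20.1, then 19.8, 19.7, 15.8 and 18.2, then 42.6 and 45.9. The BMPC libraries lay above all others and the BMPC KO libraries above the BMPC C libraries. BMPC exceeded nB by 0.61 ± 0.18 in C (log2, SE; limma adjusted p = 0.005), under the fold limit, and by 1.23 ± 0.22 in KO (3e-05). Of the 7 nearest-start regions, only that of Tet3 varied by over 1 log2 unit between the 6 group means (1.30). Over the 16 libraries, the nearest-start regions most like it were those of Slc18b1 (Pearson r = 0.913), Mamstr (0.907), Nsun2 (0.906), Pld1 (0.900) and Efna3 (0.885), a description over points that share cell type and depth.

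**Figure D3:**
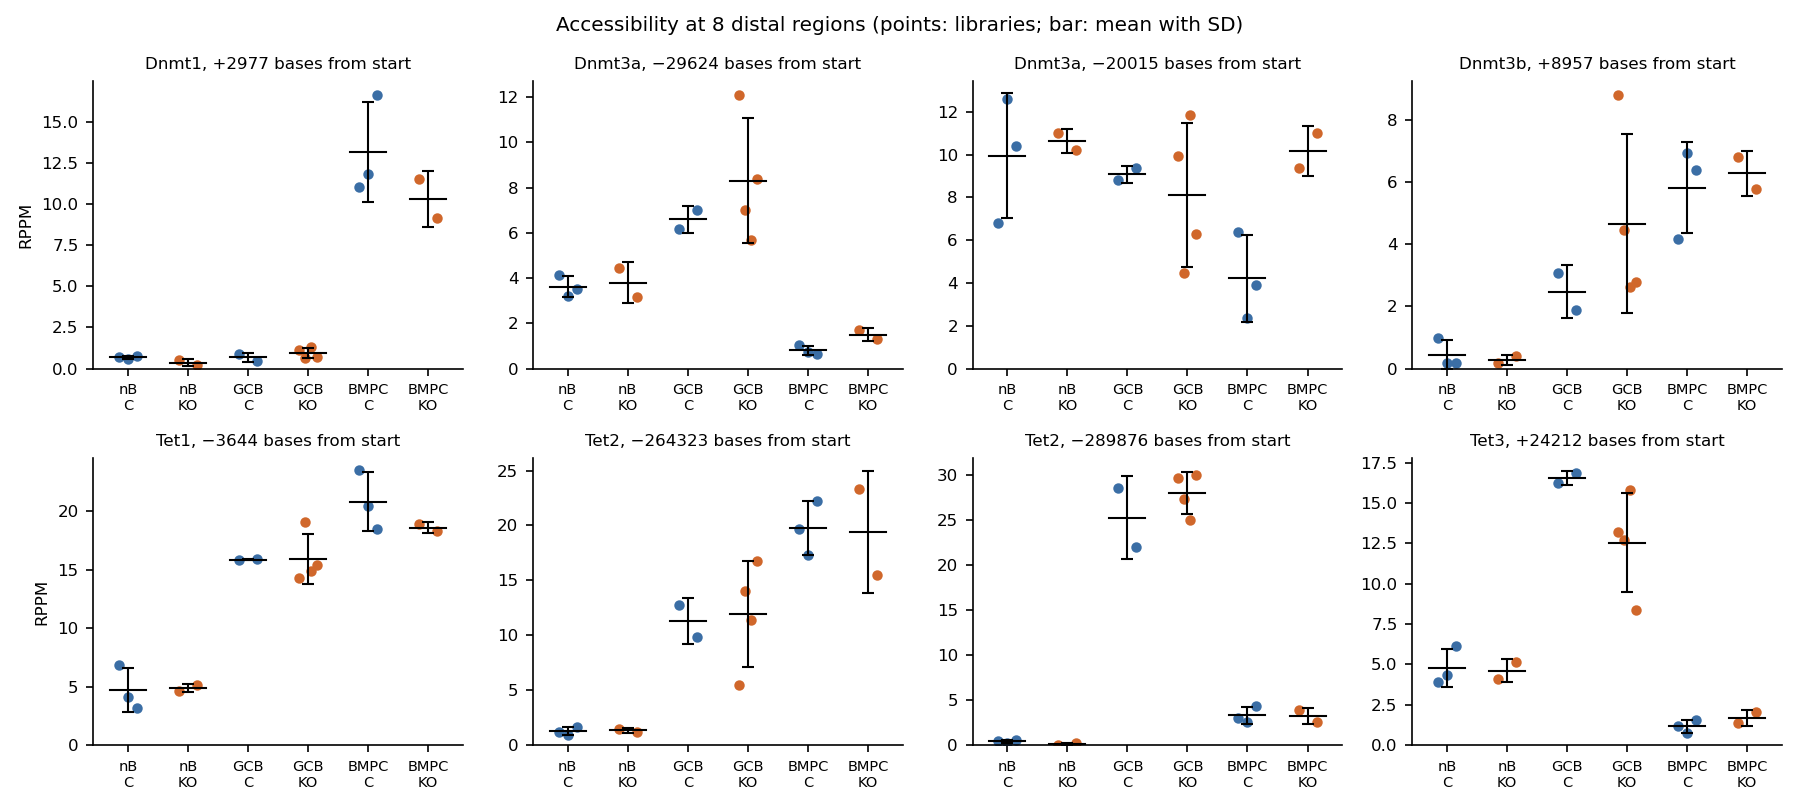
Accessibility in RPPM (vertical axes, linear from 0) in each library (points; blue C, orange KO) at 8 distal regions, with the mean and SD of each group in black. The Dnmt1 region at 2977 is higher in the BMPC libraries than in all others, the Tet2 region at −289876 is highest in the GCB libraries, and the Dnmt3a region at −20015 is lower in BMPC C than in BMPC KO.

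Over the 56 regions, the counts called can be read against the share of all regions called in the same comparison. In C, GCB against nB gave 7 higher and 1 lower, where 14.2% of all regions were higher and 8.47% lower. BMPC against nB gave 13 higher and 7 lower (18% and 20.1% of all regions). BMPC against GCB gave 4 higher and 4 lower (11.3% and 19.1%). As a share of the 56, 14.3%, 35.7% and 14.3% were called, beside 22.7%, 38.1% and 30.4% of all regions. The median log2 fold changes of the 56 were 0.05, 0.28 and 0.17, beside 0.05, 0.03 and −0.06 over all regions.

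In KO the same comparisons gave 13 higher and 2 lower, 19 higher and 4 lower, and 7 higher and 6 lower. The background was 18.4% higher and 7.84% lower for GCB against nB, 18.4% and 16.9% for BMPC against nB, and 12.1% and 19.9% for BMPC against GCB. The medians were 0.34, 0.55 and 0.22, beside 0.12, 0.08 and −0.03 over all regions. With quantile normalization the split of member calls shifted to 6 higher and 2 lower for GCB against nB in C and in KO, to 9 and 4 for BMPC against GCB in C and to 10 and 4 in KO, and with totals that left out the mitochondrial chromosome it was 7 and 0 for GCB against nB in C. Quantile normalization moved the median of all regions by −0.11, −0.19, 0.14 and 0.12 in these 4 comparisons. Of the 56 regions, 31 (55.4%) were called in at least 1 of the 6 comparisons, beside 60.2% of all regions, and 25 in none.

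**Figure D4:**
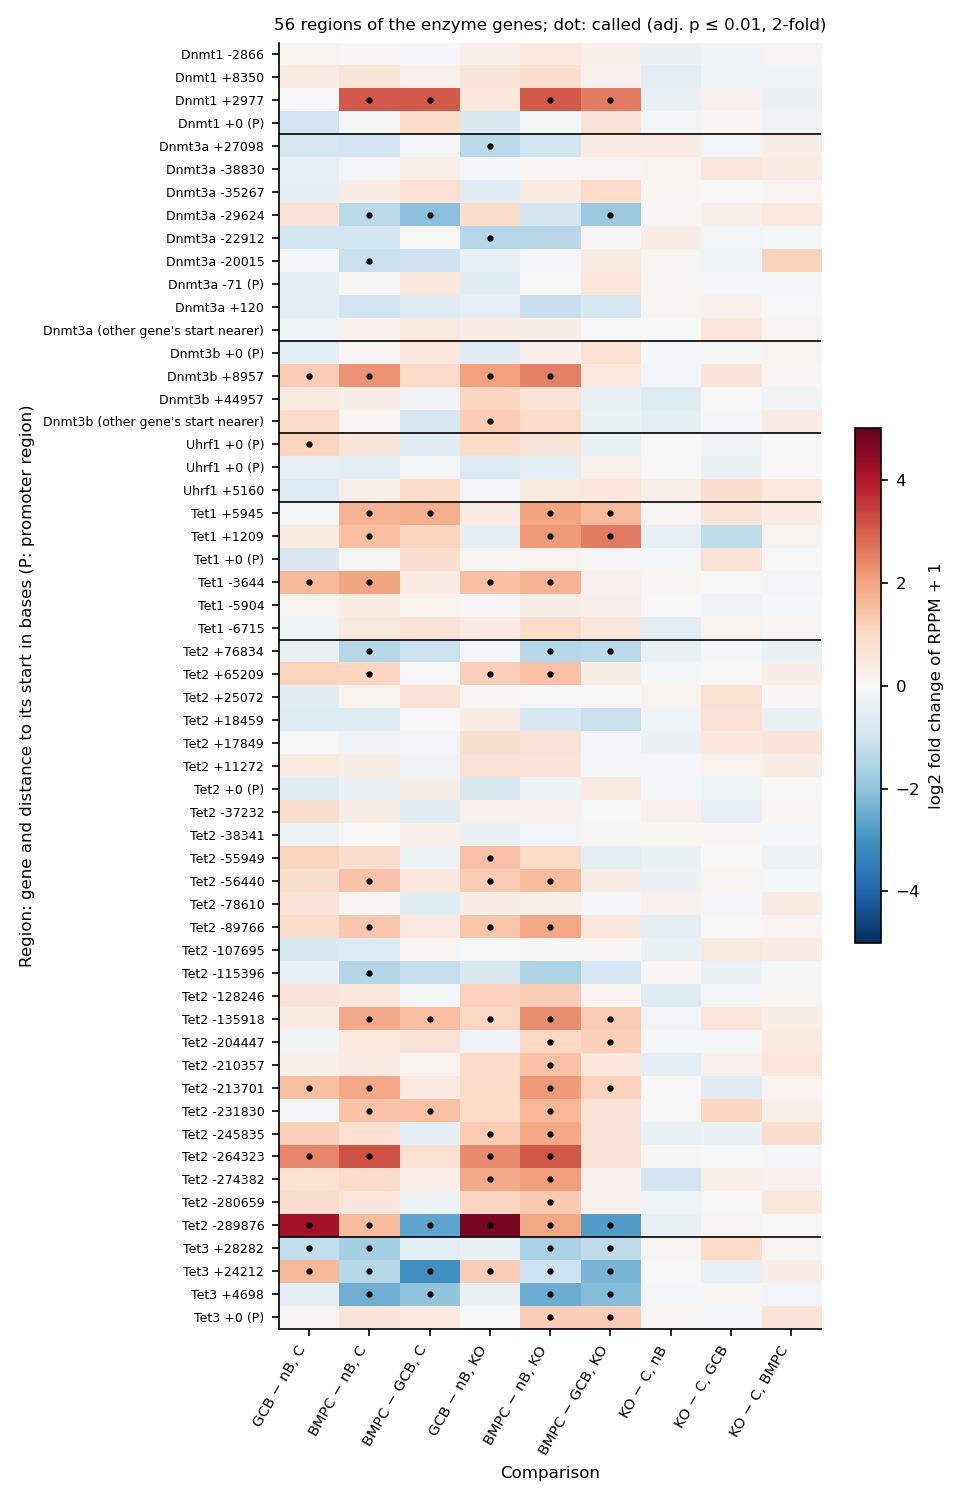
Log2 fold change of RPPM + 1 (color, −5 to 5) of the 56 regions (rows) in 6 cell type and 3 genotype comparisons (columns). Rows are labelled by gene and distance to the nearest listed start in bases, P marks promoter regions, and black dots mark called regions. Calls appear in the 6 cell type columns and in none of the 3 genotype columns.

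The calls of BMPC against nB were shared between the genotypes in 17 regions, all in the same direction, of the 20 called in C and the 23 called in KO. These were 85% of the C calls and 73.9% of the KO calls, beside 79.9% and 86.3% over all regions. For GCB against nB, 5 regions were called in both, of 8 in C and 15 in KO (62.5% and 33.3%, beside 76.9% and 66.5%). For BMPC against GCB they were 7 of 8 and 13 (87.5% and 53.8%, beside 77.7% and 73.9%). Tet2, with 26 of the 56 regions, accounted for 9 of the 15 calls of GCB over or under nB in KO. Leaving out either nB KO library lowered that total to 6 or 7.

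KO against C asked whether loss of Dnmt3a and Dnmt3b altered accessibility at the genes of the methylation machinery itself. The sources used here show the loxP sites in a drawing without coordinates, and no region was read as a measure of the deletion. With limma, none of the 56 regions was called between KO and C in nB, GCB or BMPC, where 0%, 0.0317% and 0.104% of all regions were called. The share of all regions whose KO effect differed between cell types was 0% in each of the 3 pairs, and none of the 56 was called there. At an unadjusted p under 0.05, 1 member region was lower in nB KO, 6 were higher and 1 lower in GCB KO, and 4 were higher in BMPC KO. These were 1.79%, 12.5% and 7.14% of the 56, beside 1.67%, 11.8% and 9.55% of all regions. For the differences of the KO effect, 6 were higher for BMPC minus nB, 3 for GCB minus nB, and 5 were higher and 1 lower for BMPC minus GCB (10.7%, 5.36% and 10.7% of the 56, beside 5.24%, 6.21% and 8.32% of all regions). No alternative setting or tool called a member in nB, in GCB or in these differences. At the 8 promoter regions the log2 fold changes were −0.15 to 0.07 in nB, −0.30 to 0.73 in GCB and −0.18 to 0.69 in BMPC, with standard errors of 0.13 to 0.24. Summed over the 56 regions, accessibility was 576 ± 7.67 RPPM in nB C (SD, n = 3) and 566 ± 6.53 in nB KO (n = 2), 545 ± 23.6 in GCB C (n = 2) and 550 ± 17.1 in GCB KO (n = 4), and 630 ± 24.1 in BMPC C (n = 3) and 681 ± 34.8 in BMPC KO (n = 2).

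The smallest p of the genotype comparisons was at a Dnmt3a region in BMPC, at −20015 from the internal start (chr12:3870893-3871728). It held 6.37, 2.37 and 3.89 RPPM in BMPC C and 9.35 and 11.0 in BMPC KO. The other groups were at 6.82, 12.6 and 10.4 in nB C, 11.0 and 10.2 in nB KO, 8.80 and 9.37 in GCB C, and 9.91, 4.46, 11.8 and 6.29 in GCB KO. The BMPC groups did not overlap, and the BMPC KO values lay within the range of the nB libraries. The log2 fold change of KO over C was 1.17 ± 0.33 (SE), with an unadjusted p of 0.0014 and a limma adjusted p of 0.095, and so it was not called. It was called by edgeR's quasi-likelihood test (1.13, adjusted p = 0.0042), edgeR's likelihood ratio test (1.14, 0.0011) and limma-voom (1.19, 0.0036), but not by DESeq2 (1.20, 0.036). Each of these tools also called more of all regions between KO and C in BMPC than limma did, by the counts given under the dependence on processing. Leaving out a library gave limma adjusted p-values of 0.0349 to 0.717. In C the same region was lower in BMPC than nB (−1.11 ± 0.29, limma adjusted p = 0.0021), whereas in KO it was not called (−0.06, 0.91). The direct test of that contrast, the KO effect in BMPC minus that in nB, gave no call, with limma adjusted p-values of at least 0.89 over the 56 regions.

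At the Tet3 promoter region, BMPC KO exceeded BMPC C by 0.69 ± 0.20 (log2, SE; unadjusted p = 0.0017, limma adjusted p = 0.10), from means of 27.1 ± 2.74 (SD, n = 3) to 44.3 ± 2.32 RPPM (n = 2). At the Tet1 promoter region, GCB KO held 9.91, 9.55, 11.0 and 6.99 RPPM and GCB C 5.72 and 4.68, a difference of 0.73 ± 0.23 (unadjusted p = 0.0034, limma adjusted p = 0.18). The Tet1 region at 1209 had the opposite sign in GCB, with 2.20 and 3.28 RPPM in C and 0, 0, 1.32 and 1.40 in KO (−1.27 ± 0.38, adjusted p = 0.16), all within the worth of a few reads. None of these 3 passed the test over all regions.

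The 8 promoter regions held a median of 5.75 CpG per 100 bases (3.37 to 8.89), beside 5.74 over all promoter regions, and the 48 distal regions 1.06, beside 1.21. Their median GC content was 62.0% in promoter regions (58.2% over all promoter regions) and 46.5% in distal regions (47.3%), and the ratio of observed to expected CpG was 0.585 (0.685) and 0.176 (0.226). SP1 letters (GGGCGG) were in 7 of the 8 promoter regions (83.2% of promoter regions of similar width), CCAAT in 7 (66.3%) and GGAAGT, a PU.1 motif, in 6 (56.3%).

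The proteins that work with these enzymes were described by the region nearest the start of each gene in 6 lists, with a region for 43 of the 48 genes. In C, 3 were called higher and 2 lower in GCB than nB (11.6% of the 43), 5 higher and none lower in BMPC than nB (11.6%), and 4 higher and 1 lower in BMPC than GCB (11.6%). Over the nearest-start regions of all 15301 genes, 17.1%, 18.7% and 19.6% were called. The median log2 fold changes of the lists were −0.28, 0.05 and 0.27, beside −0.11, 0.10 and 0.21 over all genes. In KO the counts were 4 higher and 2 lower (14%, beside 20.2% of all genes), 4 and 0 (9.3%, beside 18%) and 3 and 1 (9.3%, beside 19.8%). Idh2 and Ehmt2 were not called in GCB against nB there, nor Whsc1 and Idh2 in BMPC against GCB, nor Cxxc4 in BMPC against nB. Nsd1 (log2 fold change −1.01), Zbtb4 (1.08) and Cxxc5 (−1.07) were called in GCB against nB in KO and not in C. Dppa3 was called in BMPC against GCB in KO (1.51) and not in C. Between KO and C none of the 43 was called in any cell type, and none for the difference of the KO effect between cell types.

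Of 8 readers of methylated CpG with a region, Mbd1, by a region at −1606 bases from its start, was higher in GCB C than nB C (log2 fold change 1.94 ± 0.31 SE, limma adjusted p = 1.3e-05) and higher again in BMPC C (3.04 ± 0.28 over nB C, 3.7e-10), with means of 0.617, 5.39 and 12.2 RPPM in nB C, GCB C and BMPC C. Mbd4, a reader that is also a thymine glycosylase, was higher at a distal region 3840 bases past its start in BMPC C than nB C (1.24 ± 0.20, 8e-06). Among 10 genes of base excision and repair, Neil2, a DNA glycosylase, rose from 3.55 RPPM in nB C to 18.4 in GCB C (2.09 ± 0.21, 6.8e-09) and 21.1 in BMPC C (2.28 ± 0.19, 4e-11). In the list of TET cofactors and partners (8 genes), Cxxc4, which encodes a CpG-binding partner of Tet2, rose from 2.05 to 13.8 RPPM in GCB C (2.30 ± 0.28, 1.8e-07), and Idh2, a mitochondrial source of 2-oxoglutarate, was lower in GCB C (−1.04 ± 0.19, 5.5e-05). Partners of the de novo enzymes (6 genes) included Ehmt2, an H3K9 methyltransferase, lower in GCB C than nB C (−1.06 ± 0.26, 0.0017), and Whsc1, an H3K36 methyltransferase, higher in BMPC C than GCB C (1.12 ± 0.14, 1.1e-07). Among 4 maintenance partners Dppa3, an inhibitor of Uhrf1, was higher at a distal region 1244 bases past its start in BMPC C than nB C (1.63 ± 0.37, 0.00053), and none of the 7 genes of methyl donor supply was called in any comparison.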

How the data were processed

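ATAC-seq libraries of nB, GCB and BMPC were sequenced by the authors as paired ends. Per the methods of the study, reads were mapped to mm9 with Bowtie, regions were called with MACS2 and merged over all samples, and 1 library was left out because its share of reads in regions lay outside the limits they set. The submitters' processing notes list Bowtie 1.1.1, Picard 1.127, MACS2 2.1.0.20140616 and edgeR 3.12.1, and the methods name other versions of Bowtie and MACS2. The deposited values are RPM, scaled by the authors to 1000000 reads in regions per library (called RPPM here), so that depth and mitochondrial share act on them. Every value came out as whole reads within 0.1 read, and these recovered reads were used for depth and for count tests. The deposited table also holds the authors' 9 comparisons (fold changes and FDR), which were not used. Of 17 samples, 16 had a column.

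Member regions and the gene lists were chosen with earlier results of these data known. Some genes of the lists and one element of the mouse genotype are not reported here, and the list counts leave those genes out. All 6 groups entered 1 limma 3.58.1 fit of log2(RPPM + 1) with a variance trend and no covariate, over all 66177 regions, with 9 comparisons of groups and 3 of genotype effects between cell types. Calls needed a Benjamini-Hochberg adjusted p no higher than 0.01 together with a 2-fold change. Regions named with the values of every library were, per gene, the region nearest the start, any region called between genotypes and the called distal region with the largest change in each comparison between C cell types; the others, among them the region over the first Dnmt3a starts and the regions with the smallest genotype p-values, were chosen after their values were seen. Alternatives were other pseudocounts (0.1 and 5), filters, scalings, thresholds, sex and pool terms, edgeR 4.0.16, DESeq2 1.42.0 and limma-voom on the recovered reads, and leaving out each library. Gene positions come from GENCODE vM1 on NCBIM37, and sequences from that genome (65893 of the regions lie on its chromosomes). Motifs were counted on both strands against regions 0.8 to 1.25 times as wide. The fitting code was tested on simulated data. Distances are those of the deposited table, to the nearest listed start. The depth of each library, 907959 to 8232313 reads, limits values under 3 reads.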

Additional observations from a re-analysis of the deposited data

Results flagged for a closer look

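In the group of 4 GCB KO libraries, 1 of the 56 regions had a library set apart from the rest. At the distal region assigned to Dnmt3b by nearest transcript (chr2:153536370-153536828), the first GCB KO library held 11.0 RPPM and the others 4.19, 4.38 and 4.46, so that the gap took 0.962 of the range of the group, above Dixon's 95% critical value. That library was the shallowest, with 907959 reads in regions. Chance alone sets apart about 1 in 20 groups of this size, and 56 were looked at.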

How the results depend on the processing

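For the called comparisons of the regions that the naming rule chose, 1230 values were computed under alternative settings, of which 1187 kept their direction and their side of the threshold, 43 kept the direction but were no longer called, and none reversed. Comparisons that were not called, and regions chosen after their values were seen, are not in that count. An adjusted p of at most 0.05 and no minimum fold change (41 values each) only relax the limits of the main fit, so they cannot lose a call. Both are also among the alternative settings counted for single regions above. A pseudocount of 5 lowered the member calls to 4 (GCB against nB), 6 (BMPC against nB) and 3 (BMPC against GCB) in C and to 4, 10 and 7 in KO. For BMPC against GCB in C, quantile normalization and edgeR's likelihood ratio test each gave 13. For GCB against nB in KO, quantile normalization and a fit of the compared groups only each gave 8. Leaving out 1 library at a time gave 6 to 9, 17 to 20 and 6 to 10 calls in C and 6 to 16, 16 to 27 and 9 to 15 in KO, the low of 6 without nB KO replicate 1 and 7 without replicate 2, and 0 in every genotype comparison. For KO against C in BMPC, edgeR's quasi-likelihood test, its likelihood ratio test and limma-voom each called 1 member. Over all regions these gave 962 higher and 239 lower, 1329 and 348, and 1164 and 229, and DESeq2 409 and 85, compared with 60 and 9 by limma. The causes were not tested. The genotype effects in GCB rest on libraries of 907959 to 2280954 reads, where regions of a few RPPM hold a few reads each.

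Pools named F2 and M1 exist in both GCB genotypes. Their deviations from the group means correlated at 0.0384 and 0.0678 over 64316 regions, and with 2 pairs the names were not taken as a pairing. With the pool as a replicate block, 0 member regions were called between KO and C in GCB, as without it, and 8 regions of all were higher and 2 lower, compared with 21 and 0.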
